A study of Mus musculus with 12 samples.

Results

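Transcripts of 7 genes that mark B cells were followed in the mouse cecum after surgical injury. The genes were Cd79a, Cd79b, Ms4a1, Pax5, Cr2, Fcer2a and Cd22, and they were chosen by name, as every non-control probe whose gene name in the array design was 1 of the 7. They had 15 probes among the 56605 probes on the array, and they were 7 of the 37071 genes tested. Injury was made by opening the abdomen at the midline and touching the cecum with electric bipolar forceps. Cecum tissue was taken at 3, 12 or 72 h after cauterization, or at 0 h from mice given the sham operation, with 3 mice and 3 arrays in each of the 4 groups. The study kept C57BL/6 mice, but its methods do not tie a strain to the arrays. The operated mice were anesthetized with pentobarbital, no allele or transgene is named for any group, and the age of the mice was not given in the sources used here. RNA was labeled with Cy3 and hybridized to 1-colour arrays, on which the brightness of a spot measures 1 transcript.

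B cells recognize antigen through a surface immunoglobulin that signals by means of a pair of small membrane proteins, and they need the transcription factor Pax5 to keep their identity. In the gut wall most of them lie in lymphoid follicles, including the cecal patch, in which follicular B cells sit among stromal cells and T cells. Plasma cells, the antibody-secreting progeny of B cells, shut off most of these genes and lie mainly in the lamina propria. In whole tissue, a lower number of B cells and less RNA per B cell cannot be told apart.

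The level of a probe below is its log2 intensity relative to the 75th percentile of its array, so a level of 0 is the 75th percentile, and a difference of 1 is 2-fold. Between 62.0% and 66.8% of the non-control spots per array were well above background, and none was saturated. The intensity at the 75th percentile was between 179.5 and 260.8. The sham and 3 h arrays lay on 1 slide and the 72 h arrays on another, while the 12 h arrays were divided between both slides. The labels call the mice male, but Xist was above background on 12 of 12 arrays and both probes of Ddx3y and of Eif2s3y on 0, while 1 of 3 probes of Uty, another Y-linked gene, was above background on 1 sham array. Precision is limited by 3 arrays per group, and the p-values measure the spread between these samples, which the study calls biological triplicates. Levels of different probes cannot be compared with each other, so no order of the 7 genes by level is given. Where a gene had several probes, the one with the highest mean level stood for it and is called its best probe.

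The 7 genes were all measured on the sham arrays, where each of these probes was above background on 3 of 3 arrays. After cauterization none of the 7 passed the test at any time. The values were lower on average for 7 of 7 genes at 3 h and at 72 h, and near those of the sham arrays at 12 h for most of them. Of all 37071 genes, 16309 were lower on average at 3 h and 25024 at 72 h. The spread among the 3 h arrays was far wider than among the sham arrays, and the same array, 3 h replicate 1, was the lowest of the 12 for every one of the 7 genes. Fcer2a was the 1 gene of the 7 whose best probe was below all 3 sham arrays on all 9 cauterized arrays. The share of all genes with that pattern over the 9 arrays was not counted. At single times, 17.8%, 20.8% and 24.9% of all genes lay below all sham arrays at 3, 12 and 72 h. The second probe of Fcer2a overlapped with sham at every time.

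**Figure D1:**
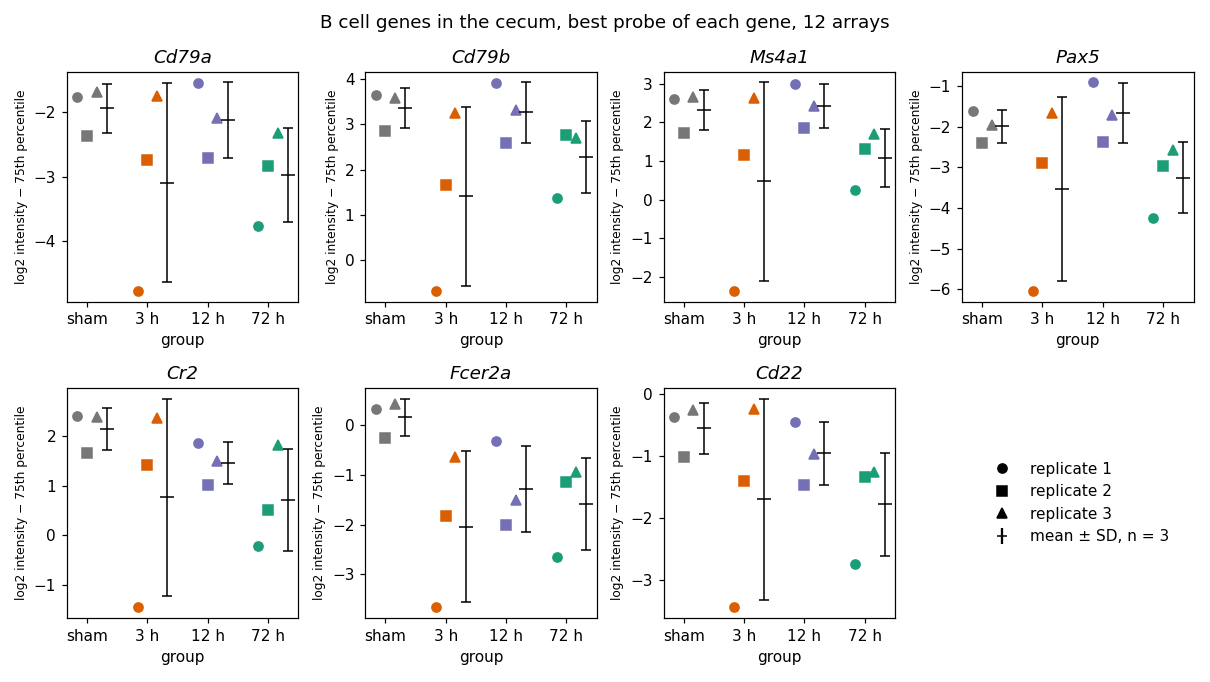
The level (vertical axis, log2 intensity relative to the array's 75th percentile) is plotted for the best probe of each of the 7 genes on every array, by group, with the replicate shown by the shape of the point and the mean ± SD (n = 3) beside the points. Replicate 1 at 3 h is the lowest point in all 7 panels and replicate 1 at 72 h is the second lowest, while the sham points lie close together.

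Cd79a and Cd79b encode Igα and Igβ, the membrane proteins that carry the signal of the B cell receptor. For Cd79a the sham arrays read −1.77, −2.38 and −1.69. The 3 h arrays read −4.77, −2.75 and −1.76, the 12 h arrays −1.56, −2.72 and −2.10, and the 72 h arrays −3.76, −2.84 and −2.33. The sham arrays thus overlapped with those of every time point, and 3 h replicate 1 stood 2.02 below the next 3 h array. For Cd79b the sham levels were 3.65, 2.86 and 3.59, against −0.69, 1.65 and 3.26 at 3 h. The 12 h arrays read 3.91, 2.58 and 3.31, and the 72 h arrays 1.37, 2.76 and 2.71. All 3 of the 72 h arrays were below the sham arrays, by a margin smaller than the spread within either group, while the 3 h and 12 h arrays overlapped with sham.

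Ms4a1 encodes CD20, a membrane protein of mature B cells, and Cd22 encodes an inhibitory sialic acid-binding lectin that dampens B cell receptor signaling. The sham levels of Ms4a1 were 2.59, 1.72 and 2.65. The 3 h arrays gave −2.37, 1.15 and 2.62, the 12 h arrays 2.98, 1.84 and 2.43, and the 72 h arrays 0.24, 1.31 and 1.69. Ms4a1 had the widest gap of the 7 genes between the lowest 3 h array and the next, at 3.52, and its highest 72 h array was just below its lowest sham array. For Cd22 the sham levels were −0.37, −1.02 and −0.25, followed by −3.45, −1.41 and −0.23 at 3 h. Its 12 h levels were −0.44, −1.46 and −0.97, and its 72 h levels were −2.74, −1.34 and −1.26. The 3 h array with the highest Cd22 level was also the highest of all 12 arrays, so at 3 h the group held both ends of the range.

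Cr2 and Fcer2a encode receptors that bind products of humoral immunity. Cr2 encodes CD21, the receptor for complement C3 fragments on follicular B cells and follicular dendritic cells, and Fcer2a encodes CD23, the low-affinity IgE receptor of follicular B cells. The sham levels of Cr2 were 2.40, 1.66 and 2.39, the 3 h levels −1.46, 1.41 and 2.36, the 12 h levels 1.87, 1.01 and 1.49, and the 72 h levels −0.21, 0.50 and 1.82. Every cauterized group overlapped with sham for Cr2. For Fcer2a the sham arrays read 0.31, −0.27 and 0.42, whereas the 3 h arrays read −3.66, −1.82 and −0.65. Its 12 h levels were −0.33, −2.01 and −1.51, and its 72 h levels were −2.64, −1.15 and −0.95. No cauterized array reached the lowest sham array for Fcer2a, although 12 h replicate 1 came close to it.

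Pax5, the transcription factor that commits cells to the B lineage, read −1.61, −2.41 and −1.97 on the sham arrays. Its 3 h levels were −6.05, −2.90 and −1.66, its 12 h levels −0.91, −2.39 and −1.72, and its 72 h levels −4.24, −2.96 and −2.58. The probe was not well above background on 3 h replicate 1, so the level there is a bound. The 72 h arrays lay below the sham and the 12 h arrays, and the 12 h arrays held the highest Pax5 level of the 12.

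At 3 h against sham, limma called 0 of the 7 genes at a fold change above 2 and a Benjamini-Hochberg adjusted p below 0.05, where 7.37% of all genes were called. The median difference of the 7 was −1.54, against 0.08 over all genes. Fcer2a had the largest difference, −2.20 ± 0.73 (SE, adjusted p = 0.0646), from a mean of 0.15 ± 0.37 (SD, n = 3) in sham to −2.04 ± 1.52 (SD, n = 3) at 3 h. Cd79b followed with −1.96 ± 0.83 (SE, adjusted p = 0.129) and Ms4a1 with −1.85 ± 1.01 (SE, adjusted p = 0.219). The other 4 lay between −1.54 for Pax5 and −1.15 for both Cd79a and Cd22. Without adjustment, p was below 0.05 for 2 of the 7 genes, Cd79b and Fcer2a, against 34% of all genes. Fcer2a alone had 3 h arrays that did not overlap with the sham arrays and lay lower, as did 17.8% of all genes.

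The size of the 3 h differences rested on a single array. Without 3 h replicate 1 the median difference was −0.31, with −0.91 for Cd79b, −0.43 for Ms4a1, and −0.31 to −0.26 for Cd79a, Pax5, Cr2 and Cd22. Fcer2a kept −1.39 (adjusted p = 0.154 by limma), and again 0 of the 7 genes were called. Fcer2a at 3 h was called in 5 of 31 alternative analyses, with adjusted p-values in limma from 0.0253 to 0.039, and Cd79b in 1 of them (adjusted p = 0.0262), the analysis without 3 h replicate 3.

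**Figure D2:**
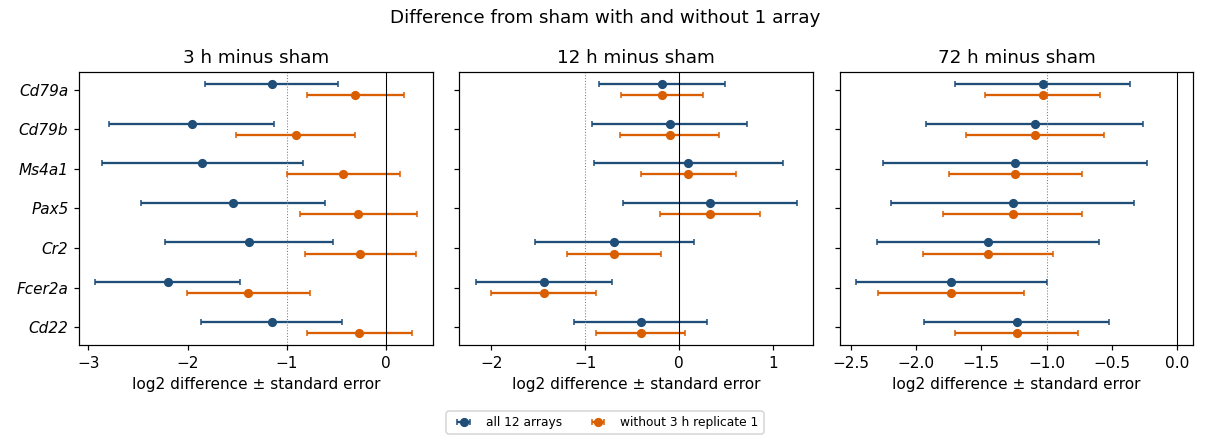
Log2 difference from sham ± SE (horizontal axis) is given for the 7 genes at 3, 12 and 72 h, with all 12 arrays in blue and without 3 h replicate 1 in orange; the dotted line marks a 2-fold lower level. That array was the lowest for all 7 genes, so leaving it out had to raise the 3 h means. All 7 of the 3 h differences moved toward 0, and the standard errors narrowed. With 1 mean per group, the differences at 12 and 72 h could not move.

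At 12 h against sham, 0 of the 7 genes were called, where 9.06% of all genes were, and 0 had an unadjusted p below 0.05, as 32.4% of all genes had. The median difference was −0.18, against −0.01 over all genes. Cd79a, Cd79b, Ms4a1 and Pax5 differed by between −0.18 and 0.33, with standard errors from 0.67 to 1.01. Cr2 differed by −0.69 ± 0.85 and Cd22 by −0.41 ± 0.71. Fcer2a had the largest difference here too, −1.44 ± 0.73 (SE, adjusted p = 0.213 by limma), and was again the 1 gene of the 7 whose arrays all lay below sham, as did 20.8% of all genes. With the 12 h arrays of the first slide alone, the median difference was −0.20.

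At 72 h against sham, 0 of the 7 genes were called by limma, where 8.85% of all genes were. The median difference was −1.24, against −0.14 over all genes, and the 7 differences covered a narrow range, from −1.73 for Fcer2a to −1.03 for Cd79a. Fcer2a (−1.73 ± 0.73, adjusted p = 0.133) was the 1 gene of the 7 with an unadjusted p below 0.05, against 32.8% of all genes. Cr2 differed by −1.45 ± 0.85 (adjusted p = 0.273), Pax5 by −1.26 ± 0.93 (adjusted p = 0.394), and Cd22 by −1.23 ± 0.71 (adjusted p = 0.266). The 72 h arrays lay below all sham arrays for 5 of the 7 genes, namely Cd79b, Ms4a1, Pax5, Fcer2a and Cd22, compared with 24.9% of all genes.

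The spread of the 3 h arrays also widened the errors of the 72 h comparison, since the groups shared 1 estimate of the spread. Without 3 h replicate 1, an array singled out by these same values, the 72 h differences were the same. Their adjusted p-values in limma were then 0.0584 for Fcer2a, 0.0738 for Cr2, 0.102 for Cd22 and 0.122 to 0.196 for the other 4. The median difference was −0.77 without 72 h replicate 1, the lowest of that group for all 7 genes. Since the sham and 72 h arrays lay on different slides, the slide could be separated only through the 12 h arrays. With the slide as a block the median was −1.21. Over all genes, 591 were then called higher and 561 lower at 72 h, against 1687 and 1594 without the block. Standard errors widened, for Ms4a1 from 1.01 to 1.93, so calls lost with this block are not particular to the genes named.

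None of the 7 genes passed the test between time points. From 3 to 12 h all 7 differences were above 0, where 22627 of the 37071 genes were below 0. The 7 ran from 0.69 for Cr2 to 1.95 for Ms4a1, with a median of 0.97, but 0 were called where 3.46% of all genes were. Without 3 h replicate 1 the median was 0.13 and the signs were split, with Cr2 at −0.43 and Cd79b at 0.81. With all 12 arrays, Cd79b alone had an unadjusted p below 0.05 from 3 to 12 h (difference 1.86 ± 0.83, adjusted p = 0.21 by limma), against 24.1% of all genes. From 12 to 72 h all 7 were below 0, as were 23526 of the 37071 genes, with a median of −0.85. Of the 7, 0 were called there (7.52% of all genes) or had an unadjusted p below 0.05 (32.3%). Ms4a1 and Pax5 were the 2 genes whose 72 h arrays lay below every 12 h array, as did 24.1% of all genes. From 3 to 72 h the median was 0.28 with both signs present (Cr2 −0.07 and Cd22 −0.08, against Cd79b 0.87), 0 were called (11.7% of all genes) or had an unadjusted p below 0.05 (49.1%), and the sign turned to a median of −0.81 without 3 h replicate 1. In limma's F-test of any difference among the 4 groups 0 of the 7 passed, where 39.3% of all genes did, with Fcer2a at the lowest adjusted p of 0.118. The later time points share their reference arrays with the earlier comparisons and are not independent of them.

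The 7 genes moved with each other from array to array. After each gene was centered on its mean, the average over the 7 genes was 1.05, 0.33 and 1.04 in sham mice and −2.90, −0.36 and 0.87 in the 3 h mice. The 12 h arrays averaged 1.1, −0.14 and 0.44, and the 72 h arrays −1.40, −0.22 and 0.18. Replicate 1 at 3 h was thus the lowest array and 3 h replicate 3 among the highest. The Pearson correlation between pairs of the 7 genes lay between 0.83 and 0.99 over the 12 arrays, with a median of 0.95 over 21 pairs. For deviations from the group means, which leave time out, it lay between 0.92 and 0.99 with a median of 0.98. Without 3 h replicate 1 the 21 correlations lay between 0.69 and 0.98, lowest for Pax5 with Fcer2a and highest for Ms4a1 with Pax5. These points share their arrays and their scaling, and the correlations are given as a description.

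Other genes followed the same pattern. Among 20800 genes above background on all 12 arrays, those whose levels correlated most closely with the average of the 7 over 12 arrays included Chst3, a sulfotransferase (r = 0.989), the transcription factor Spib (0.986), Ighd, the constant region of IgD (0.986), Fcmr, the IgM receptor (0.985), and the scaffold protein Bank1 (0.983). A lincRNA on chromosome 8 (0.980), H2-Oa (0.978), Izumo1r (0.976) and Gimap1os (0.976) were also among the first 10. For deviations from the group means the first 10 included Fcmr, Chst3, Ighd, Cxcr5, Spib, Hvcn1, H2-DMb2, Tnfrsf13c and Srpk3, from 0.997 to 0.989. Cxcr5, the chemokine receptor that guides B cells to follicles, read −2.71, 0.45 and 1.53 on the 3 h arrays against 0.14, −0.48 and 0.29 on the sham arrays. It therefore had the same low array, yet a 3 h difference of only −0.23 ± 0.90, the other 3 h arrays being high.

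Of all 37071 genes, 85 (0.229%) had a correlation above 0.9 with the average of the 7 B cell genes. The 7 themselves were not left out of this count. They included 11 of 29 other B lineage genes, 4 of 20 T cell markers and 2 of 14 genes of follicle stroma and B cell factors. The median correlation was 0.87 over the other B lineage genes, 0.74 over germinal center genes, 0.73 over T cell markers and 0.68 over follicle genes. It was 0.23 over plasma cell genes, −0.13 over macrophage markers, −0.18 over neutrophil markers and 0.03 over epithelial markers. Without 3 h replicate 1 the medians were 0.78 for the other B lineage genes and 0.80 for T cell markers, which turns their order. They were then 0.70 for germinal center genes, 0.57 for follicle genes, 0.24 for plasma cell genes, −0.56 for macrophages, −0.34 for neutrophils and 0.54 for epithelium.

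The low array at 3 h was low in few genes. Of 21937 genes above background on the other 3 h arrays, 78 (0.356%) were more than 2 log2 units below both of them on 3 h replicate 1, and 5 were as far above. Replicate 1 at 3 h had been singled out because all 7 B cell genes were lowest on it. That these genes lay below the other 3 h arrays was therefore set by this choice. Their counts among the lower genes, here and at a gap of 1 log2 unit, are a description only. The 78 held 6 of the 7 B cell genes, Fcer2a being the exception with a gap of 1.84. They also held 10 of 28 other B lineage genes and 2 of 14 follicle genes, and no gene from the lists of T cells, plasma cells, germinal center, macrophages, neutrophils, epithelium or smooth muscle. At a gap of 1 log2 unit, 395 genes (1.8%) were lower, among them 7 of 7 B cell genes, 16 of 28 other B lineage genes, 5 of 14 follicle genes, 3 of 10 germinal center genes, 3 of 22 B cell receptor signaling genes, 3 of 18 T cell markers, 2 of 18 neutrophil markers and 0 of 14 plasma cell genes. How much of the cecal wall or of a lymphoid patch went into each sample was not given, and its part in these values was not tested.

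**Figure D3:**
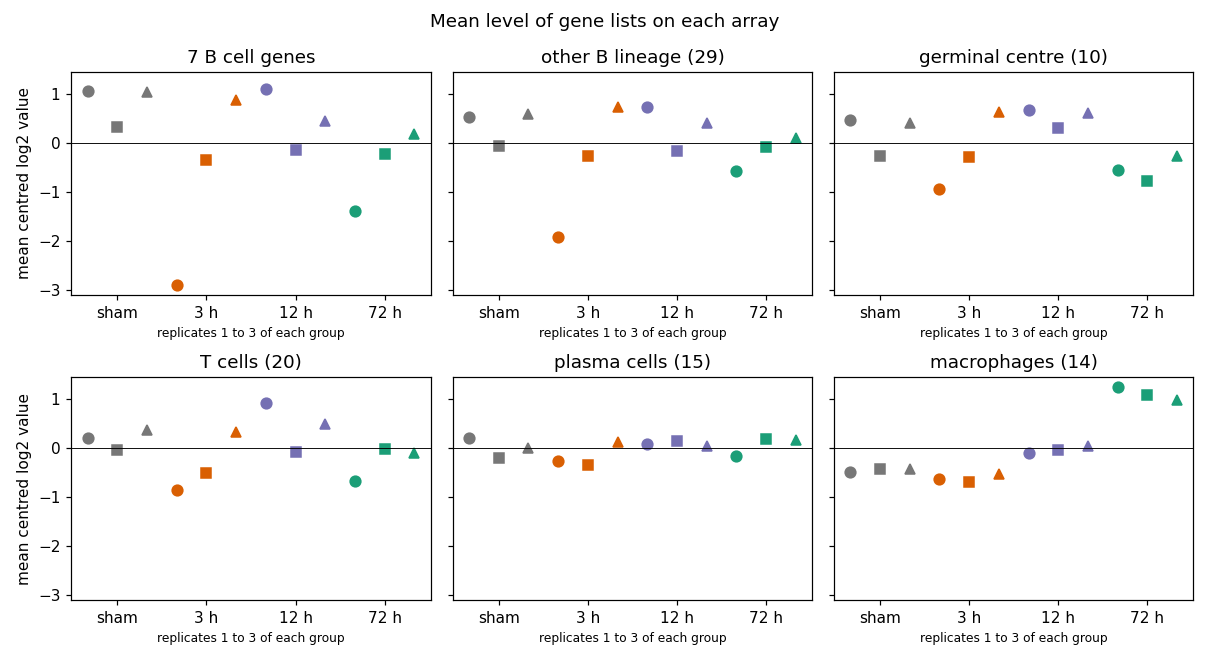
The mean log2 value of each gene list after centering every gene on its mean over 12 arrays (vertical axis) is shown for each array, with circles, squares and triangles for replicates 1, 2 and 3. The 7 B cell genes and the 29 other B lineage genes share the low 3 h array (−2.90 and −1.92), the 10 germinal center genes and the 20 T cell markers less so (−0.94 and −0.86), and the 15 plasma cell genes do not have it, while the macrophage markers are highest on the 72 h arrays.

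The several probes of a gene did not all follow it. The capitals in the probe stretches below mark the longest run in the stretch made of only 2 kinds of base, and each stretch is 30 bases of a probe of 60, read from the deposited file and shown for the best probe of 4 genes and for the other probes of these genes that had r below 0.7 with it, a choice made after the values were seen. Positions are those of the probes in mm9, on the minus strand. Exons were not assigned, as no genome of that build was used.
Cd22 best probe, chr7:31651590-31651649: tactcagagctggttcaGTTTGGGGctggt
Cd22 probe A_55_P2016004, chr7:31651249-31651308: AAAAACCAACCAACCAACCAAACAAAAAAC
Cd22 probe A_55_P2163795, chr7:31665113-31665172: gggcctgcTGTGTTTTTTcatctactttac
Fcer2a best probe, chr8:3682021-3682080: tgcccaatcAAAATAcaccatcacatcata
Fcer2a probe A_55_P2732758, chr8:3689270-3689329: GAAAGAAAGAGAAAGGAAGGtggggaggaa
Ms4a1 best probe, chr19:11325409-11325468: aaatgtaaTGGGTTcccagatctcaaatcc
Ms4a1 probe A_66_P120649, chr19:11324334-11324393: ctggagaggatggggaggtGGGAGGAGGAG
Pax5 best probe, chr4:44537936-44537995: agatgttggactaTTTTTCTTTTgttggga
Pax5 probe A_66_P128859, chr4:44692322-44692381: tccatcaGTGGcatcctgggcatcacgtcc

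Of the 5 probes with r below 0.7, 3 had a stretch with few distinct trinucleotides and 2 did not. The shown stretch of the Cd22 probe A_55_P2016004 held 6 distinct trinucleotides, as few as in 0.254% of all probes, and its 34-base run of A and C is as long as in 0.111% of probes. The stretches of the Fcer2a and Ms4a1 probes held 11 each (1.06% of probes), and the run in that Fcer2a probe, 20 bases of A and G, is as long as in 0.943% of probes. Counted in the same way, the stretch ranked at 90.6% for the Cd22 probe A_55_P2163795 and at 40.1% for the Pax5 probe A_66_P128859. The best probes ranked at 58.9% for Cd22, 7.79% for Fcer2a, 97.3% for Ms4a1 and 40.1% for Pax5. Whether such stretches had a part in the values was not tested.

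For Ms4a1 the probe A_66_P120649, 1075 bases downstream of the best probe, ranged over 0.93 on the 12 arrays where the best probe ranged over 5.35, with r = 0.61 between them. For Fcer2a the probe A_55_P2732758, 7249 bases upstream, had r = −0.13 with the best probe and was highest on 72 h replicate 1, at −2.28, an array on which the best probe was low. For Cd22 the probe A_55_P2016004, 341 bases downstream, ranged over 1.0 against 3.21 (r = 0.44). These probes were above background on most arrays, with 12 for those of Ms4a1 and Cd22 and 11 for that of Fcer2a. For Pax5 the probe A_66_P128859, 154386 bases upstream, ranged over 1.17 against 5.14 (r = 0.53). Without 3 h replicate 1 the Ms4a1 probe had r = 0.83 with its best probe, so it followed that probe more closely on the other arrays. The Fcer2a probe then had r = −0.32, the Cd22 probe A_55_P2016004 0.18 and the Pax5 probe 0.45. The 3 probes of Cr2, by contrast, stayed together (r = 0.99 or more with the best probe).

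**Figure D4:**
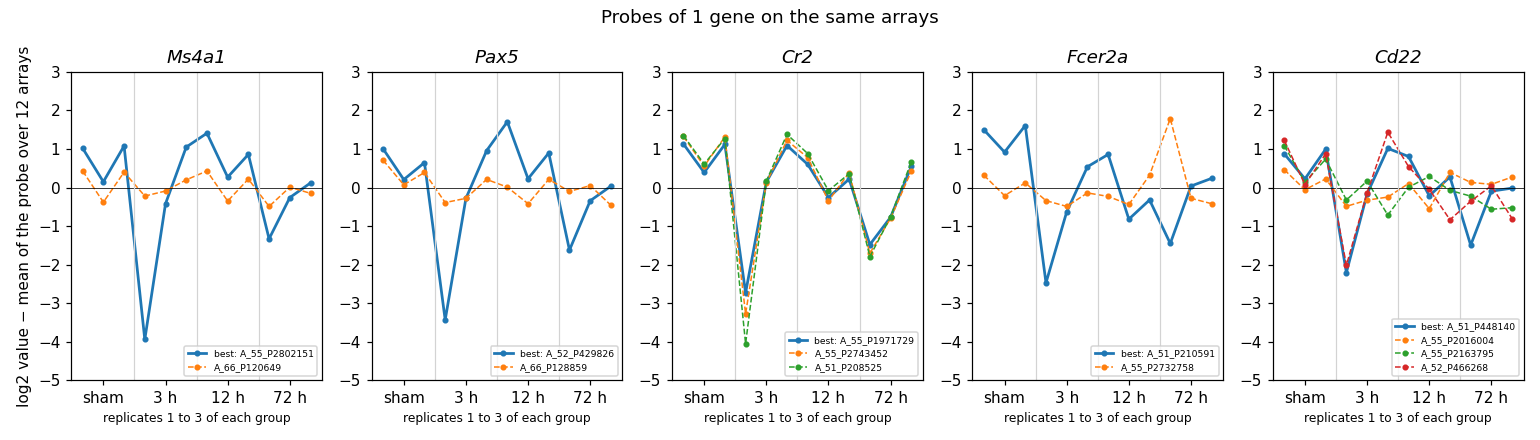
Each line is 1 probe of a gene over the 12 arrays, as the log2 value minus the mean of that probe (vertical axis), with the best probe as the thick line and the arrays in order of group and replicate. The 3 probes of Cr2 lie on each other. The second probes of Ms4a1, Pax5 and Fcer2a and probe A_55_P2016004 of Cd22 do not show the deep low point of 3 h replicate 1. It is the lowest of the 12 arrays for none of them, but the lowest 3 h array for those of Ms4a1, Pax5 and Cd22.

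Cd22 had 2 dim probes. Probe A_55_P2163795 (chr7:31665113-31665172) was the 1 probe of the 15 that was called, at 72 h against sham, with −1.09 ± 0.27 (SE, adjusted p = 0.0174 by limma). Of all 56605 probes, 4673 were called in that comparison, so 1 of 15 is not unusual. Probe A_55_P2163795 was above background on 3 sham arrays, no 3 h array, 2 of the 12 h arrays and 1 of the 72 h arrays, so most of its 72 h values are bounds. Its sham level was at least 1.61-fold higher than at 3 h. The call was lost with a floor on dim probes (−0.94), quantile normalization (−0.90) or normexp background correction (−0.35). It was also lost with the slide as a block (−0.87, adjusted p = 0.344 by limma), in treat against 2-fold and in Dunnett's test (adjusted p = 0.0843). Without sham replicate 1, 72 h replicate 2 or 72 h replicate 3 it was lost too (adjusted p from 0.0509 to 0.0633 by limma). The methods' t-test after adjustment (0.197) called 0 of all probes at 72 h, so the loss there says nothing of this probe. Probe A_52_P466268 was above background on 4 of 12 arrays, 2 of them in sham and none at 72 h.

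Because the 7 genes moved together, their promoters were searched for short motifs of B cell transcription factors, in the 250 bases before the start of transcription and on both strands. RefSeq promoters (GRCm38.p6) were found for 5 of the 7 genes, not for Cd79b and Ms4a1, which are named only. The EBF core CCCNNGGG was in Cd22, and in 11.8% of 32851 promoters. The octamer ATTTGCAT (1.6%), AGAGGAAG of PU.1 (3.67%) and GCGTGAC of Pax5 (1.78%) were in none of the 5. The shorter EBF core GGGAAT, which was added after the promoters had been seen, was in Cd79a and in 2 of the 3 start sites of Fcer2a, and in 11.4% of all promoters. A match says only that the letters occur there. The promoters of Cd79a (plus strand) and Cd22 (minus strand) are shown as examples of 1 match each, with the match in capitals, and their positions are in another build than those of the probes.
Cd79a, chr7:24897247-24897496: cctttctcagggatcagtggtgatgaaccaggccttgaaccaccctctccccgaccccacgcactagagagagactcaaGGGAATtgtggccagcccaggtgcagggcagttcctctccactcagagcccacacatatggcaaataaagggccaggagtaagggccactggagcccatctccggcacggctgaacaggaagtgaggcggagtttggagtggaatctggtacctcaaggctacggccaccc
Cd22, chr7:30879029-30879278: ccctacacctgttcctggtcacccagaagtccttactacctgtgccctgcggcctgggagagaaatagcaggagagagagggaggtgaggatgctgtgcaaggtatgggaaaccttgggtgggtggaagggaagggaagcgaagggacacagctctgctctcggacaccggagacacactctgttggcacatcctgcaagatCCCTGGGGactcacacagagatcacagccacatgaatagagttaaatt

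The other genes of the B lineage were described from lists that hold none of the 7. Of 29 other B lineage genes, limma called 1 lower at 3 h, none at 12 h and 1 higher at 72 h, with median differences of −0.81, 0.02 and −0.67. Cd180, a Toll-like receptor homolog of B cells, fell by 2.70 on the log2 scale at 3 h (adjusted p = 0.0382). Its levels were −5.16, −2.57 and −1.32 at 3 h against 0.14, −1.01 and −0.08 in sham, so the groups did not overlap, but without 72 h replicate 1 or with the slide as a block it was not called. Ly86, which encodes MD-1, the partner of Cd180 that macrophages also make, rose at 72 h by 1.27 (adjusted p = 0.0346), a call that was also lost without 72 h replicate 1 or with the slide as a block. Without 3 h replicate 1 the 3 h median was −0.18, Cd180 was not called at 3 h, and Cd40, a co-stimulatory receptor, was called higher. In that setting Cd180 was called lower at 12 h and at 72 h, as were 1839 and 1622 of all 37071 genes.

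Of 22 genes of B cell receptor signaling, most of which other leukocytes also use, 1 was called higher and 1 lower at 3 h. Blnk, the adaptor downstream of Syk, rose by 1.14 (adjusted p = 0.00127, limma). At 12 h limma called 6 higher and none lower, with a median of 0.67. They were Pik3ap1 (2.41), Vav1 (1.74), the kinase Lyn (1.71), the inhibitory Fc receptor Fcgr2b (1.27), Syk (1.24) and the phosphatase Ptpn6 (1.08). The 5 called at 72 h were all higher, led by Fcgr2b (1.92), Lyn (1.25) and Vav1 (1.25), and with the slide as a block Fcgr2b was the 1 gene still called. Their median correlation with the 7 B cell genes was 0.31, but 0.0 without 3 h replicate 1. The summed level of 14 macrophage markers, on the linear scale relative to the 75th percentile, was 152 to 173 in sham, 221 to 245 at 12 h and 417 to 438 at 72 h. For 18 neutrophil markers it was 84.7 to 96.0 in sham, 910 to 977 at 12 h and 384 to 731 at 72 h. The part of either cell type in these signaling genes was not tested.

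Germinal center genes numbered 10, of which limma called none at 3 h, Bcl6 (1.11) as higher at 12 h, and 4 at 72 h, of which 3 were lower. At 72 h Nuggc fell by 1.71 (adjusted p = 0.0286) and Mybl1 by 1.19 (adjusted p = 0.0143), and S1pr2, a receptor that holds B cells in the germinal center, rose by 1.27 (adjusted p = 0.00453, limma). For none of these 3 did the 72 h arrays overlap with the sham arrays. The counts at 72 h depended on single arrays. They were 1 higher and 5 lower without 3 h replicate 1, and 1 of each without 72 h replicate 1. With the slide as a block, which cut the calls over all genes too, the count was 0.

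Plasma cell genes were listed apart, since plasma cells keep few of the 7 genes. None of the 15 measured was called at 3 h, while 2 rose and 1 fell at 12 h, and 1 rose and 1 fell at 72 h. Igha, the constant region of IgA, differed from sham by −0.01, −0.27 and −0.32 at 3, 12 and 72 h and was not called, and neither were Igkc (−0.07, −0.27 and −0.33) and Jchain (0.09, −0.13 and −0.19). On 3 h replicate 1, Igha read 9.23 against 9.18 and 9.21 on the other 3 h arrays. Fkbp11, a secretory pathway chaperone, rose by 2.11 at 12 h and 3.12 at 72 h, Creld2, an endoplasmic reticulum stress protein, rose by 1.73 at 12 h, Tnfrsf17 fell by 1.18 at 12 h, and Slamf7 fell by 1.05 at 72 h. Fkbp11 was above background on 1 sham array and on no 3 h array. With the slide as a block, which cut the calls over all genes too, none of the 15 was called at 72 h. Slamf7 was not called without 72 h replicate 1, and Fkbp11 was not called at 12 h within the first slide.

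Of 14 genes of follicle stroma and B cell factors, 0 were called at 3 h. At 12 h the survival factor Tnfsf13b (BAFF) rose by 1.38 and the cytokine Il7 by 1.18, and at 72 h Tnfsf11 rose by 1.29 and Lta, a lymphotoxin of lymphocytes, fell by 1.8. With the slide as a block, which cut the calls over all genes too, none of the 14 was called at 72 h. Lta was not called without 72 h replicate 1. Cxcl13, the chemokine that draws B cells into follicles, read 0.97, 2.57 and 3.24 at 3 h and 1.05, 2.34 and 4.09 at 72 h, against 2.07, 1.69 and 1.96 in sham, and was not called at any time (12 h difference 1.39 ± 0.71, adjusted p = 0.212 by limma). Its lowest arrays were the replicate 1 arrays at 3 and 72 h, as for the 7 B cell genes.

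Markers of other cells moved with the groups, and their part in the values of the 7 B cell genes was not tested. T cell markers had 1 of 20 called, Cd5 at 3 h (−1.48, adjusted p = 0.0489 by limma, not called without 3 h replicate 1), and none at 12 and 72 h, and their summed level was 28.5 to 34.6 in sham, 18.5 to 34.1 at 3 h, 25.1 to 44.9 at 12 h and then 27.9 to 33.3. Neutrophil markers had 11, 15 and 12 of 18 called higher at 3, 12 and 72 h, with a summed level of 84.7 to 96.0 in sham and 910 to 977 at 12 h, and Cxcr2, Ltf, Ngp and Clec4e were not above background on any sham array. Macrophage markers had 11 of 14 called higher at 72 h. Of 10 smooth muscle markers, 2 were called lower at 3 h, 10 at 12 h and 7 at 72 h. Epithelial markers had 4 of 16 called lower at 72 h, or 1 (Car4) with the slide as a block, where their sum was 1440 to 1930 against 2540 to 2720 in sham. The summed level of the 7 B cell genes was 15.4 to 26.5 in sham and 1.4 to 23.0 at 3 h, then 12.6 to 28.9 at 12 h and 5.06 to 14.6 at 72 h. It was below all sham arrays only at 72 h, and by a small margin. The highest 72 h array was at 14.6 and sham replicate 2 at 15.4, while sham replicates 1 and 3 were at 26.5 and 26.3. A linear sum weighs bright probes most, and the sham and 72 h arrays lay on different slides.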

How the data were processed

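Cecum RNA from 12 mice was measured on 1-colour Agilent mouse arrays (SurePrint G3 v2), grouped by the sample labels. The authors deposited scanner output of Feature Extraction 11.5.1.1, in which spot intensity is corrected for background and not normalized between arrays. A table of log2 values that the authors had scaled in GeneSpring and deposited was an alternative here.

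Control spots and spots marked as outliers (53 to 152 per array) were left out, and spots of 1 probe were averaged. Log2 intensity minus the array's 75th percentile over the 56605 non-control probes was fitted in R 4.3.3 by limma 3.58.1 with 1 mean per group on the 12 arrays, using lmFit, contrasts.fit and eBayes, with Benjamini-Hochberg adjustment across probes. A call needed more than a 2-fold difference together with an adjusted p under 0.05, as in the study, whose test for the arrays is not named. A probe not above background on any array of a group was given a bound. Fits were tested on simulated data. Sequences were handled in Python 3.11.15.

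The 7 genes and the lists were chosen with earlier results of these data known. Named genes were the 7, up to 5 called genes per list with the largest difference, genes called against their list, and the 10 genes with the highest correlation, a few of which are not reported here; Cxcl13, Cxcr5, Igha, Igkc, Jchain and Cd40 were named after their values were seen. Constant immunoglobulin genes were matched by description, and Igk, Ighg and Tnfsf13 were not matched. A list of 8 dendritic cell markers had 1 higher and 0 lower called at 3 h and 0 at 12 and 72 h. The percentile over spots, in which probes printed many times weigh more, was an alternative chosen after the data were seen, and the choice between both percentiles was made with their results known.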

Additional observations from a re-analysis of the deposited data

How the results depend on the processing

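No setting called a member of the 7 at 12 h or between time points, and the 12 h median kept its sign in all but 1 alternative. At 3 h the count of the 7 genes called was 1 (Fcer2a) with normexp, the filter on dim probes, trend and robust, or the mean of all probes, and from 0 to 2 when 1 array was left out. The first 3 of these settings called 1002, 3924 and 4267 probes in all, and the mean of all probes 2422 genes. The main analysis called 4148 probes at 3 h, and the analyses with 1 array left out 3182 to 4341. At 72 h the count of the 7 was 1 (Fcer2a) with normexp, which called 1543 probes in all. In the F-test the count of the 7 was 1 with normexp and from 0 to 2 when 1 array was left out. In the main analysis 39.3% of all genes passed the F-test. With 1 array left out the median ran from −2.48 to −0.31 at 3 h, −0.46 to 0.12 at 12 h, −1.55 to −0.77 at 72 h and −0.81 to 1.16 from 3 to 72 h, where normexp gave −0.13. Of 1267 comparisons of single genes with an alternative, 34 changed sign. With the mean of all probes Pax5 at 12 h was −0.06, Fcer2a from 12 to 72 h 0.10, and Cr2 and Cd22 from 3 to 72 h 0.03 and 0.04. From 3 to 72 h, Cr2 and Cd22 were 0.06 and 0.05 with the percentile over probes above background, and Cd79a and Pax5 −0.27 and −0.32 with normexp. With 1 array left out, the 12 h differences ran from −0.46 to 0.12 (Cd79a), −0.42 to 0.24 (Cd79b), −0.20 to 0.38 (Ms4a1) and −0.05 to 0.68 (Pax5). From 3 to 12 h they ran from −0.43 to 1.48 (Cr2), −0.05 to 1.46 (Fcer2a) and −0.14 to 1.47 (Cd22), and from 12 to 72 h from −0.66 to 0.24 (Fcer2a). From 3 to 72 h they ran from −0.72 to 0.78 (Cd79a), −0.17 to 1.8 (Cd79b), −0.81 to 1.69 (Ms4a1), −0.98 to 1.21 (Pax5), −1.18 to 0.73 (Cr2), −0.34 to 1.16 (Fcer2a) and −0.96 to 0.65 (Cd22). The causes were not tested. The t-test and Dunnett's test that the methods name for other assays called 0 of the 7. After adjustment the t-test, with arrays paired by replicate number, called 0 of all probes at 3, 12 and 72 h against sham. Its count there says nothing particular of the 7. Unadjusted, it called 3337, 4134 and 3762 of all probes at these times, and Dunnett's test called 2785, 3680 and 3064. With the percentile over spots, added after the data were seen, 0 of the 7 were called and the medians at 3, 12 and 72 h were −1.56, −0.21 and −1.25. The floor on dim probes moved the median over all probes at 3 h from 0.06 to −0.11 and at 12 h from −0.02 to −0.18.

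With the replicate number as a block, 0 of the 7 genes were called and the medians were −1.54, −0.18 and −1.24 at 3, 12 and 72 h. Deviations of 18 pairs of arrays with the same number correlated between −0.404 and 0.264, with 6 over 0.1. All 3 pairs of sham with 72 h were over 0.1 (0.101, 0.153 and 0.174), and in no other comparison were all 3. For sham with 72 h, pairs with different numbers lay between −0.251 and 0.148. Elsewhere such pairs reached 0.385 (3 h replicate 1 with 12 h replicate 2) and 0.367 (sham replicate 1 with 3 h replicate 2). These values are not evidence that the arrays were paired. Within a slide no value could be had for 72 h against sham or against 3 h. Dim probes limit Pax5 at 3 h and 2 probes of Cd22.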
